A study of Mus musculus and Homo sapiens with 81 samples.

Results

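The genes described here are 8 genes for acute phase proteins: the fibrinogen chains FGA, FGB and FGG, the protease inhibitor SERPINA3, the serum amyloid A genes SAA1 and SAA2, haptoglobin (HP) and the lipopolysaccharide binding protein (LBP). They were picked by symbol, with their values in the human count tables already seen, from the 23227 genes that each human table lists. Their levels and differences in the human lines are therefore given as a description, with no test. Of the 8 genes, 5 passed the filter on low counts in A549, 2 in HT29, 1 in A375 and 0 in MelJuSo.

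Acute phase proteins are plasma proteins that the liver secretes in larger or smaller amounts during inflammation. Hepatocytes make most of them when interleukin-6 and its relatives act through the receptor subunit gp130, the kinases JAK1 and JAK2 and the transcription factor STAT3, often together with interleukin-1 acting through NF-kB and with C/EBP factors. Epithelia outside the liver can also express several of them. Interferon-gamma (IFNg) signals through JAK1 and JAK2 to STAT transcription factors. PTPN2 is a tyrosine phosphatase known to remove phosphate from JAK1, JAK3 and STAT3.

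The series asked how loss of PTPN2 changes interferon signalling in cancer cells, by RNA sequencing of 81 libraries. Cells that express Cas9 were infected with lentivirus for 1 guide RNA per genotype: a guide labelled Ptpn2sg3 (genotype Ptpn2ko) or a non-targeting guide, Bro4 in human lines and Bro3 in mouse B16 melanoma (controls). A549 (labelled lung cancer) and HT29 (colon cancer) had 2 libraries in each of 4 groups: Ptpn2ko with IFNg, control with IFNg, Ptpn2ko with vehicle, and control with vehicle. A375 and MelJuSo, both melanoma lines, had 3 per group, except 2 for A375 controls in vehicle. B16 had 3 libraries in each of 14 groups, Ptpn2ko or control under IFNb, IFNg, TNFa, each pair of these, or vehicle. IFNg was used at 100 ng/mL, IFNb at 1000 U/mL and TNFa at 10 ng/mL for 48 h, and the vehicle was PBS with albumin. The labels do not say whether cells were clones or pools, or whether replicates were separate cultures, so p-values measure the spread between these libraries, which may be technical.

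Library totals were between 3498860 and 9605776 counts. Levels are given as CPM, a gene's read count set against the scaled total of its library and brought to one common total for all libraries. PTPN2 was lower in Ptpn2ko than in control libraries of A549 (18.4 to 20.7 against 31.3 to 38.4 CPM under IFNg, 14.1 to 14.8 against 26.2 to 31.1 CPM in vehicle) and of HT29 (26.5 to 27.6 against 39.8 to 40.2 CPM, 15.4 to 16.7 against 27.9 to 28.9 CPM), so transcripts remained. In A375 vehicle it went against the labels, at 24.1 to 25.1 CPM in the libraries labelled Ptpn2ko and 11.9 to 12.1 CPM in those labelled control. In A375 under IFNg it followed them, at 11.3 to 13.6 CPM with the label Ptpn2ko and 17.2 to 22.8 CPM with the label control. The levels of this gene in MelJuSo and B16 are not given here. All 8 epithelial markers reached 1 CPM in A549 and HT29, and 7 of 8 colon markers did in HT29, where 1 control IFNg library is labelled lung in a single field. Of these CDX2, CDH17 and GPA33 were at most at 1.46, 1.47 and 1.33 CPM. Of the epithelial markers in A549, EPCAM, KRT19, CLDN4, CLDN7 and ESRP1 were at most at 7.61, 7.24, 3.89, 2.38 and 1.05 CPM. KRT8, KRT18 and CDH1 carried the epithelial list there. In A549 the summed lung list reached at most 2.48 CPM, so these markers did not show the labelled lung tissue. There 5 of 8 colon markers reached 1 CPM, with a sum of 48.1 to 58.8 CPM. MUC13 (18.2 to 45.5 CPM) and CDH17 (10.8 to 27.5 CPM) carried that sum. CEACAM5, VIL1, LGALS4 and CDX2 were at most at 5.07, 1.93, 1.05 and 0.931 CPM, and CDX1 and GPA33 were at 0 throughout. Hepatocyte markers were near 0 apart from CPS1, a urea cycle enzyme, at 227 to 304 CPM in A549: ALB (albumin) stayed at or under 0.151 CPM in A549 and 0.232 CPM in HT29. In bulk RNA, more cells of a kind and more RNA per cell cannot be told apart.

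In A549 cells the 3 fibrinogen chains were highest in Ptpn2ko cells under IFNg, by 4.47-fold (FGA), 19.8-fold (FGB) and 4.85-fold (FGG) over IFNg-treated controls. In control cells IFNg left FGA close to its vehicle level and FGB was lower. Fibrinogen is the clotting precursor that thrombin turns into fibrin, and it is assembled from pairs of the alpha, beta and gamma chains, which these neighbouring genes encode. LBP, which passes bacterial lipopolysaccharide to CD14, was also highest in Ptpn2ko cells under IFNg, at a far lower count.

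FGA, the alpha chain, had 252 and 249 CPM in Ptpn2ko IFNg libraries, against 57.4 and 54.7 CPM in control IFNg libraries. In vehicle it had 72.2 and 68.6 CPM in Ptpn2ko and 49.7 and 52.4 CPM in control libraries. The Ptpn2ko IFNg libraries stood apart from the other 6, and the remaining groups followed in the order Ptpn2ko vehicle, control IFNg, control vehicle without overlap, the last 2 being close. The log2 fold change of Ptpn2ko over control was 2.16 ± 0.06 (SE) under IFNg and 0.46 ± 0.08 in vehicle. IFNg over vehicle gave 1.83 ± 0.05 in Ptpn2ko and 0.13 ± 0.08 in control cells.

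FGB, the beta chain, had 156 and 144 CPM in Ptpn2ko IFNg libraries, against 7.57 and 7.53 CPM in control IFNg libraries. Its vehicle levels were 25.3 and 29.4 CPM in Ptpn2ko and 16.4 and 17.4 CPM in control libraries. Control cells under IFNg were thus the lowest group, below control vehicle, and no pair of groups overlapped. On the log2 scale Ptpn2ko over control was 4.31 ± 0.10 under IFNg and 0.68 ± 0.13 in vehicle. IFNg over vehicle was 2.46 ± 0.08 in Ptpn2ko and -1.16 ± 0.17 in control cells, opposite in sign, with the controls 2.24-fold lower under IFNg.

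FGG, the gamma chain, had 45.5 and 39.6 CPM in Ptpn2ko IFNg libraries, against 10.7 and 6.78 CPM in control IFNg libraries, and 16 and 11.7 CPM in Ptpn2ko vehicle, against 11.8 and 9.12 CPM in control vehicle. Only the Ptpn2ko IFNg libraries stood apart from all others. Ptpn2ko vehicle lay above control IFNg, and control vehicle overlapped both. The log2 fold change of Ptpn2ko over control was 2.28 ± 0.13 under IFNg and 0.43 ± 0.17 in vehicle. IFNg over vehicle was 1.60 ± 0.12 in Ptpn2ko cells and -0.24 ± 0.19 in controls, where leaving out control IFNg replicate 2 turned it to 0.04.

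**Figure D1:**
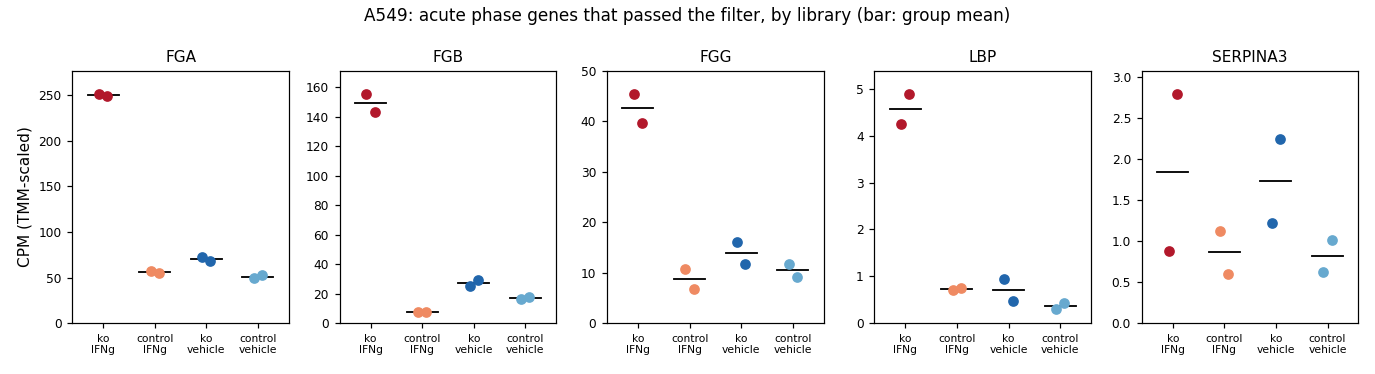
CPM (vertical axis, one panel per gene) of the acute phase genes that passed the filter in A549, by group, with each point 1 library and each bar the group mean. FGA, FGB, FGG and LBP have their highest points in the Ptpn2ko IFNg group, where FGB lies at 144 and 156 CPM, while SERPINA3 shows overlapping points under IFNg.

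The difference between the genotypes' IFNg responses, Ptpn2ko minus control on the log2 scale, was 1.70 ± 0.10 for FGA, 3.62 ± 0.19 for FGB and 1.85 ± 0.23 for FGG (SE, n = 2 libraries in each of 4 groups). FGB differed more between the groups than its partners did. Reads of FGB per 100 reads of FGA numbered 61.8 and 57.6 in Ptpn2ko IFNg libraries, against 13.2 and 13.8 in control IFNg libraries. In vehicle they numbered 35.0 and 42.9 in Ptpn2ko and 33.1 and 33.1 in control libraries. Such a ratio holds the unknown transcript lengths as a fixed factor, so it can be read between groups and not as a ratio of molecules. FGG reads per 100 FGA reads moved less, with group values of 17.0 in Ptpn2ko IFNg and 15.7 in control IFNg, and 19.9 in Ptpn2ko vehicle and 20.4 in control vehicle.

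**Figure D2:**
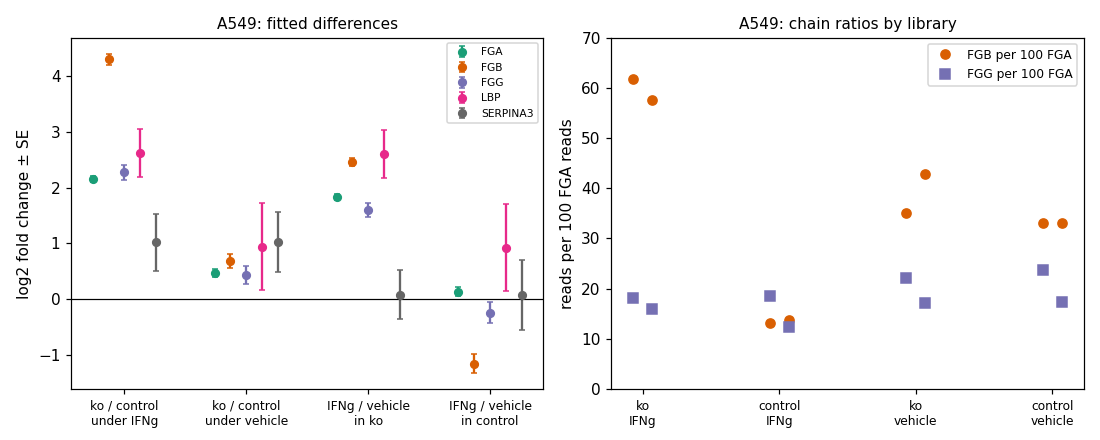
Left, log2 fold changes with SE bars (vertical axis) of the 5 genes that passed the filter in A549 for the 4 contrasts, where ko is Ptpn2ko and FGB lies at 4.31 for Ptpn2ko over control under IFNg and at -1.16 for IFNg over vehicle in controls. Right, FGB and FGG reads per 100 FGA reads (vertical axis) by group, each point 1 library, with FGB lowest in control IFNg libraries, at 13.2 and 13.8.

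LBP had 4.26 and 4.90 CPM (34 and 35 reads) in Ptpn2ko IFNg libraries, against 0.701 and 0.753 CPM (5 reads each) in control IFNg libraries. In vehicle it had 0.951 and 0.482 CPM in Ptpn2ko and 0.310 and 0.434 CPM in control libraries. The Ptpn2ko IFNg libraries stood apart and all other libraries held 7 reads or fewer. Ptpn2ko over control was 2.62 ± 0.43 on the log2 scale under IFNg and 0.94 ± 0.78 in vehicle. IFNg over vehicle was 2.61 ± 0.43 in Ptpn2ko and 0.92 ± 0.78 in control cells, and the 2 responses differed by 1.68 ± 1.02. Without Ptpn2ko vehicle replicate 1 the vehicle difference was 0.35, the IFNg response of Ptpn2ko cells 3.20 and the difference of the responses 2.27.

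SERPINA3, also called alpha-1-antichymotrypsin, inhibits serine proteases such as cathepsin G. It was barely detected in A549, with 7 and 20 reads in Ptpn2ko IFNg libraries, against 8 and 4 reads in control IFNg libraries, and 9 and 14 reads in Ptpn2ko vehicle, against 4 and 7 in control vehicle. The IFNg groups overlapped, and the log2 fold change of Ptpn2ko over control there was 1.02 ± 0.51, but 0.01 without Ptpn2ko IFNg replicate 2 and 1.66 without replicate 1 of that group. In vehicle it was 1.03 ± 0.54 with no overlap, and 0.73 without control vehicle replicate 1 and 0.56 without Ptpn2ko vehicle replicate 2. IFNg over vehicle was 0.08 ± 0.44 in Ptpn2ko and 0.08 ± 0.63 in control cells. Its sign turned on single libraries: it was -0.94 to 0.72 in Ptpn2ko cells, without Ptpn2ko IFNg replicate 2 and without replicate 1, and -0.44 to 0.48 in controls, without control IFNg replicate 1 and without control vehicle replicate 2.

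The serum amyloid A genes encode small apolipoproteins of the acute phase, and SAA1 and SAA2 are nearly identical in sequence, so how reads were split between them is uncertain. In A549 SAA2 had 6 and 3 reads in Ptpn2ko IFNg libraries, 1 and 0 in control IFNg libraries and 0 in the 4 vehicle libraries. In Ptpn2ko cells this put SAA2 under IFNg at least 2.70-fold higher than in vehicle, with the vehicle group set to a floor of 3 counts. Over control IFNg the ratio was 8.20, with a 95% exact counting interval of 1.1 to 359. SAA1 had 3 and 2 reads in Ptpn2ko IFNg libraries, 2 and 2 in control IFNg libraries, 1 and 0 in Ptpn2ko vehicle and 0 in control vehicle. HP, which binds free haemoglobin, had 0 reads in all 39 human libraries, which in A549 allows up to 0.198 to 0.225 CPM per group (3 counts, counting error only).

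Of the 8 genes in A549, FGA, FGB, FGG and LBP were at least 2-fold higher without overlap in Ptpn2ko than in control cells under IFNg, as were 2.32% of all 13172 genes tested. These 4 were also past that mark for IFNg over vehicle in Ptpn2ko cells, beside 5.18% of all genes. FGB alone was at least 2-fold lower under IFNg in controls, beside 3.26% of genes. SERPINA3 alone was at least 2-fold higher in Ptpn2ko vehicle, beside 0.433%, with the dependence on single libraries given above. LBP passed the filter on low counts through the Ptpn2ko IFNg libraries alone, and SERPINA3 through Ptpn2ko libraries alone. Since the genes were chosen with these values known, nothing is read from these shares.

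Leukocyte markers were not constant across the A549 groups. The summed level of the 8 markers was 78.0 to 83.9 CPM in Ptpn2ko IFNg libraries and 43.2 to 44.0 CPM in control IFNg libraries, and 47.8 to 48.1 CPM in Ptpn2ko vehicle and 35.8 to 38.2 CPM in control vehicle. Only CD68 and CD14 of these reached 1 CPM, and 2 of the 8 were at 0 in every library. The summed hepatocyte list was 252 to 261 CPM in Ptpn2ko IFNg, against 293 to 305 CPM in control IFNg, and carried by CPS1, while APOA2 was at 0 in every library. The part of these markers in the fibrinogen and LBP levels was not tested.

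By the smallest root mean square distance of centred log2 CPM over the 8 A549 libraries, the gene most like the mean fibrinogen profile was DNER, a Notch ligand of the nervous system, at 0.207. The next was the gene CPM, carboxypeptidase M, at 0.279, where the median distance over all genes was 1.13. For LBP these were CAND2 at 0.168 and again carboxypeptidase M at 0.327 (median 1.13). For SERPINA3, a profile of few reads, they were RNF180 at 0.350 and F2 at 0.354 (median 0.639). These are descriptions over 8 libraries that share their normalisation.

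In HT29 cells fibrinogen, SERPINA3, LBP and HP were at or near 0, whereas SAA1 and SAA2 were detected under IFNg. Both were higher in Ptpn2ko than in control cells under IFNg, by 2.84-fold (SAA1) and 2.66-fold (SAA2), and near 0 in vehicle. CPM values are scaled within a line, so levels are not compared between lines.

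SAA1 had 10.6 and 8.03 CPM (91 and 52 reads) in Ptpn2ko IFNg libraries, against 3.63 and 2.99 CPM (25 and 21 reads) in control IFNg libraries. In vehicle it had 1 and 4 reads in Ptpn2ko and 1 and 0 reads in control libraries. The order was Ptpn2ko IFNg, control IFNg, then the overlapping vehicle groups. Ptpn2ko over control was 1.51 ± 0.26 on the log2 scale under IFNg, and IFNg over vehicle was 5.0 ± 0.41 in Ptpn2ko cells, but 4.25 without Ptpn2ko vehicle replicate 1 and 6.29 without replicate 2 of that group. In controls the ratio of IFNg to vehicle was 52.2 with a counting interval of 8.92 to 2107, since a single read stood in the vehicle group.

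SAA2 had 8.59 and 6.95 CPM (74 and 45 reads) in Ptpn2ko IFNg libraries, against 2.76 and 3.14 CPM (19 and 22 reads) in control IFNg libraries. In vehicle it had 6 and 3 reads in Ptpn2ko and 0 in both control libraries. The 4 groups did not overlap. On the log2 scale Ptpn2ko over control was 1.41 ± 0.27 under IFNg, and IFNg over vehicle was 3.92 ± 0.37 in Ptpn2ko cells. In controls SAA2 was at least 15.5-fold higher under IFNg, and in vehicle at least 2.65-fold higher in Ptpn2ko than in control cells, by the same floor.

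**Figure D3:**
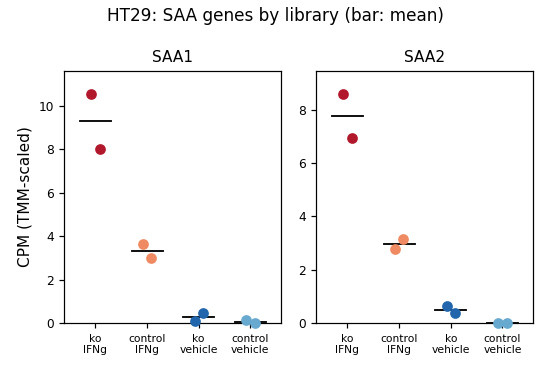
CPM (vertical axis) of SAA1 and SAA2 in the HT29 libraries by group, with each point 1 library and each bar the group mean. Ptpn2ko IFNg libraries lie at 6.95 to 10.6 CPM, control IFNg libraries at 2.76 to 3.63 CPM, and vehicle libraries below 1 CPM.

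Reads of SAA2 per 100 reads of SAA1 numbered 81.3 and 86.5 in Ptpn2ko IFNg libraries, against 76.0 and 104.8 in control IFNg libraries, so the pair kept a like proportion within the spread of the libraries, as far as reads of near-identical genes can be told apart. SAA1 and SAA2 were at least 2-fold higher without overlap in Ptpn2ko than in control cells under IFNg, as were 4.72% of the 12555 genes tested. For IFNg over vehicle both were past that mark in Ptpn2ko cells, beside 12.1% of genes, and in controls, beside 10.3%. SAA2 alone was past it for Ptpn2ko over control in vehicle, beside 2.6%. SAA1 and SAA2 passed the filter on low counts in HT29 through the IFNg libraries alone. Nothing is read from these shares, for that reason and the one given above.

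The other 6 genes did not pass the filter in HT29. FGA had 0 and 9 reads in Ptpn2ko IFNg libraries, 0 and 1 in control IFNg libraries and 0 in vehicle, so its reads lay in a single library. SERPINA3 had 0 and 1 reads in Ptpn2ko IFNg, 0 and 1 in control IFNg, 1 and 3 in Ptpn2ko vehicle and 0 and 2 in control vehicle. LBP had 2 reads and FGB 1 read, each in a Ptpn2ko IFNg library, and FGG and HP had 0 throughout, which allows up to 0.168 to 0.216 CPM per group.

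Markers moved with IFNg and genotype in HT29 too. The summed colon list was 968 to 985 CPM in Ptpn2ko IFNg and 649 to 667 CPM in control IFNg libraries, and 274 to 287 CPM in Ptpn2ko vehicle and 304 to 315 CPM in control vehicle. The leukocyte sum, mostly LYZ (lysozyme), was 2098 to 2194 CPM in Ptpn2ko IFNg and 2410 to 2478 CPM in control IFNg libraries, and 2831 to 3018 CPM in Ptpn2ko vehicle and 2495 to 2590 CPM in control vehicle, with 1 of the 8 markers at 0 throughout. Beside LYZ, CD68 lay between 5.82 and 67 CPM and CD14 between 15.2 and 60.1 CPM over the 8 libraries. The summed lung list, carried by the surfactant genes SFTPA1 and SFTPA2, was 25.6 to 27.2 CPM in Ptpn2ko IFNg and 6.68 to 6.99 CPM in control IFNg libraries, and 2.89 to 3.14 CPM in Ptpn2ko vehicle and 1.94 to 3.19 CPM in control vehicle, with 3 of 8 markers, NKX2-1 and SFTPC among them, at 0 throughout. The group order of this list was thus that of SAA1 and SAA2 under IFNg. The fibroblast sum was 6.39 to 7.10 CPM in Ptpn2ko IFNg and 2.85 to 3.19 CPM in control IFNg libraries, and at most 1.58 CPM in vehicle, with COL1A2, COL3A1 and DCN at 0. The hepatocyte sum never exceeded 1.24 CPM. The part of these markers in the SAA levels was not tested. The genes nearest to the mean SAA profile over the 8 HT29 libraries were MR1, which presents vitamin B metabolites to T cells, at a distance of 0.186, and TNFAIP3, which limits NF-kB signalling, at 0.248, where the median over all genes was 1.97.

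In the melanoma lines SERPINA3 in A375 was the one gene well above 0, and it was lower under IFNg. It had 11, 2 and 6 reads in the IFNg libraries labelled Ptpn2ko, against 2, 0 and 2 in those labelled control, and 48, 60 and 68 reads in vehicle libraries labelled Ptpn2ko, against 49 and 64 in those labelled control. Mean levels were 1.02 CPM in IFNg and 8.36 CPM in vehicle libraries labelled Ptpn2ko, and 0.197 CPM in IFNg and 9.02 CPM in vehicle libraries labelled control. IFNg over vehicle was -3.00 ± 0.29 on the log2 scale with the label Ptpn2ko and -5.47 ± 0.42 with the label control. The vehicle groups overlapped (-0.11 ± 0.19), so whichever label is taken there the direction of the IFNg difference is unchanged. Leaving out single libraries gave -3.67 (without Ptpn2ko IFNg replicate 1) to -2.68 (without Ptpn2ko IFNg replicate 2) with the label Ptpn2ko, and -5.96 (without control IFNg replicate 3) to -4.87 (without control IFNg replicate 2) with the label control. Marker sums moved with IFNg as well: the fibroblast list was at 11.8 to 13.1 CPM in IFNg and 31.1 to 36.5 CPM in vehicle libraries labelled Ptpn2ko, and at 5.05 to 6.75 CPM in IFNg and 32.8 to 34.5 CPM in vehicle libraries labelled control. For the melanocyte list these sums were 170.1 to 180.5 and 227.0 to 228.8 CPM with the label Ptpn2ko, and 161.8 to 168.7 and 276.2 to 285.9 CPM with the label control. For the epithelial list they were 280.3 to 306.9 and 507.7 to 546.7 CPM with the label Ptpn2ko, and 255.8 to 272.0 and 441.3 to 450.5 CPM with the label control. At 0 in every A375 library were 1 of 8 fibroblast, 0 of 8 melanocyte and 0 of 8 epithelial markers, and the part of these lists in the SERPINA3 level was not tested.

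Under IFNg SERPINA3 in A375 was higher with the label Ptpn2ko than with the label control, by 2.36 ± 0.68 on the log2 scale, over 19 and 4 reads in all. It was at least 2-fold lower without overlap under IFNg for either label, beside 4.85% of all 13410 genes tested for Ptpn2ko and 8.55% for control. SERPINA3 passed the filter on low counts in A375 through the vehicle libraries alone, where it was high. For Ptpn2ko over control under IFNg it was at least 2-fold higher without overlap, beside 5.67%. There the lowest library labelled Ptpn2ko and the highest labelled control each held 2 reads (0.379 and 0.337 CPM). No alternative setting or left-out library was run for that comparison. Nothing is read from the A375 shares, since the gene was chosen with these values known. SAA2 had 4, 5 and 7 reads in the IFNg libraries labelled Ptpn2ko, against 0, 1 and 0 reads in those labelled control, a ratio of 18.7 with a counting interval of 2.91 to 786. The vehicle libraries held 2 SAA2 reads for each label. The remaining genes had at most 5 reads in any A375 library. In MelJuSo no library held more than 2 reads of any of the 8 genes, and FGA, FGB, SAA2 and HP had 0 throughout. SERPINA3 there had 1 read in each of the 3 Ptpn2ko IFNg libraries and 0 in the other 9.

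**Figure D4:**
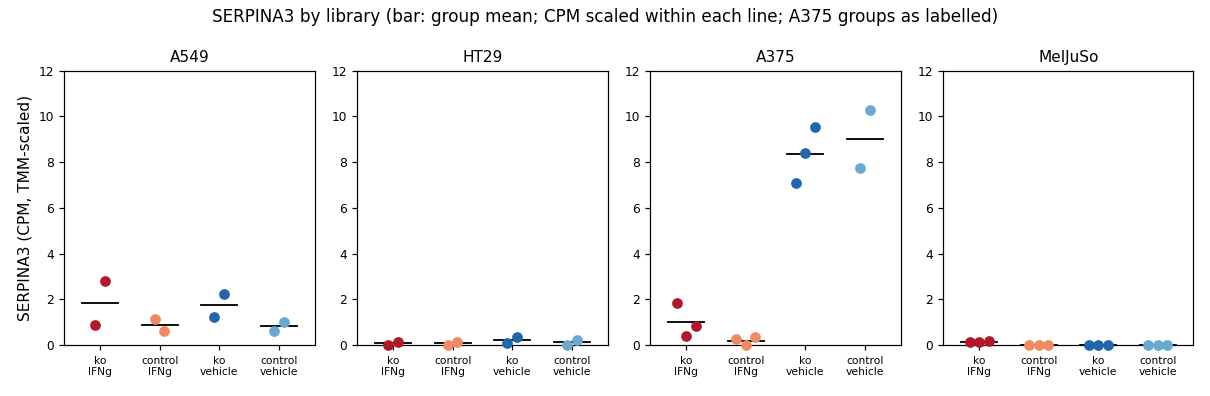
SERPINA3 level in CPM (vertical axis, 1 scale) in the human lines by group, each point 1 library and each bar a group mean, with A375 groups as labelled. Within A375, IFNg libraries lie at 0 to 1.85 CPM and vehicle libraries at 7.10 to 10.3 CPM. Levels are scaled within a line and not compared between lines.

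Other genes of the pathway were read from 8 lists of 117 genes in all, none of them among the 8 genes above. These lists too were chosen with earlier results of these data known, so their counts beside the share of all genes are a description. The tests below are those of single genes in the same libraries. Their p-values are therefore not independent of that choice. In A549, comparing Ptpn2ko with control under IFNg, 30 list genes rose and 10 fell of the 75 tested, 53.3% beside 24.3% of all genes tested (edgeR quasi-likelihood test, Benjamini-Hochberg adjusted p under 0.05). Their median log2 fold change was 0.21, against -0.01 over all genes. In vehicle 6 rose and 0 fell, 8% beside 2.95%. Under IFNg the same 24.3% stands beside each single list below. By list, 60% (other acute phase), 33.3% (hepatocyte secretory), 50% (gp130) and 53.8% (STAT3) were called. So were 61.5% (interleukin-1 and NF-kB), 42.9% (C/EBP and liver-enriched) and 71.4% (coagulation and fibrinolysis). The lists are small, so nothing is read from their single shares.

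Among other acute phase proteins in A549, 3 of 5 tested rose in Ptpn2ko over control cells under IFNg. CP (ceruloplasmin, the copper-carrying ferroxidase of plasma) averaged 350 CPM in Ptpn2ko and 83.4 CPM in control cells, a log2 fold change of 2.07 ± 0.05 with an edgeR adjusted p too small to be written as other than 0. The group highest in CP was thus the one highest in the fibrinogen chains. MT2A, a metallothionein, rose by 0.46 ± 0.09 (adjusted p 3.6e-06) and TIMP1, an inhibitor of metalloproteinases, by 0.31 ± 0.07 (adjusted p 0.00013). Of hepatocyte secretory proteins 0 of 6 rose and 2 fell, with a median log2 fold change of 0.19, and DESeq2 called neither of the 2, APOH (adjusted p 0.097) and VTN (adjusted p 0.24).

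Of gp130 ligands and receptors, 4 of 8 rose in Ptpn2ko A549 cells under IFNg and 0 fell. IL11, a ligand of the interleukin-6 family, averaged 26.6 CPM in Ptpn2ko and 11 CPM in control cells (1.26 ± 0.14, edgeR adjusted p 3.1e-17). LIFR, the receptor of leukaemia inhibitory factor, rose by 1.03 ± 0.08, OSMR, that of oncostatin M, by 0.49 ± 0.04, and IL6ST, which is gp130, by 0.34 ± 0.03 on the log2 scale. In the STAT3 list 6 of 13 rose and 1 fell. The feedback inhibitor SOCS3 averaged 176 CPM in Ptpn2ko and 77.7 CPM in control cells (1.18 ± 0.06, adjusted p 9.5e-89), and its relative SOCS1 averaged 20.3 CPM in Ptpn2ko and 3.56 CPM in control cells (2.51 ± 0.21, adjusted p 4.6e-32). JAK2 rose by 0.86 ± 0.09.

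In the interleukin-1 and NF-kB list 8 of 13 rose and 0 fell in the same A549 comparison, among them TNFAIP3 (0.95 ± 0.15, edgeR adjusted p 5e-09) and the receptor IL1R1 (0.77 ± 0.06, adjusted p 3.4e-38). C/EBP and liver-enriched transcription factors went the other way, with 0 of 14 rising and 6 falling, such as ONECUT2 (-0.70 ± 0.14, adjusted p 6e-06) and CEBPG (-0.28 ± 0.04, adjusted p 1.6e-11). DESeq2 and single left-out libraries lost the calls of CEBPA and HNF4A. In coagulation and fibrinolysis 9 of 14 rose and 1 fell. They included PROS1 (protein S) at 1.11 ± 0.08 and PLAU (urokinase) at 0.91 ± 0.06.

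IFNg over vehicle changed 61.3% of the 75 list genes in A549 controls (31 rose, 15 fell, beside 47.6% of all genes) and 76% in Ptpn2ko cells (38 rose, 19 fell, beside 53.5%), by the edgeR test. CP rose in both genotypes, by 2.93 ± 0.06 in Ptpn2ko cells and 0.91 ± 0.07 in controls. CEBPB, a C/EBP factor of the acute phase, rose by 1.22 ± 0.04 in Ptpn2ko cells and 1.45 ± 0.04 in controls. APOH fell by 1.58 ± 0.17 in Ptpn2ko cells and by 1.2 ± 0.15 in controls, and SERPINA6, a neighbour of SERPINA3 that encodes corticosteroid-binding globulin, fell by 4.43 ± 0.55 in Ptpn2ko cells and by 3.16 ± 0.50 in controls. The interferon response itself differed between the genotypes for 24 of the 75 list genes, 32% beside 11.3% of all genes, larger in Ptpn2ko cells for 19 and smaller for 5.

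In HT29 comparing Ptpn2ko with control under IFNg, 34 list genes rose and 11 fell of the 66 tested, 68.2% beside 41.9% of all genes, with a median log2 fold change of 0.32 (edgeR, adjusted p under 0.05). In vehicle 21 rose and 7 fell, 42.4% beside 21.1%. Under IFNg the same 41.9% stands beside each single list below. By list, 100% (other acute phase), 0% (hepatocyte secretory), 50% (gp130) and 76.9% (STAT3) were called. So were 78.6% (interleukin-1 and NF-kB), 50% (C/EBP and liver-enriched) and 75% (coagulation and fibrinolysis). The gp130 and C/EBP lists thus lay near the share of all genes, and nothing is read from single lists. Of the other acute phase proteins, 4 of 5 rose under IFNg. LRG1, a leucine-rich glycoprotein of plasma, averaged 111 CPM in Ptpn2ko and 50.8 CPM in control cells (1.13 ± 0.07, adjusted p 7.7e-20), and TIMP1 averaged 220 CPM in Ptpn2ko and 110 CPM in control cells (0.99 ± 0.06, adjusted p 9.5e-22). LCN2, which binds bacterial siderophores, rose by 0.44 ± 0.05 (adjusted p 3e-11), and SERPINA1, the elastase inhibitor alpha-1-antitrypsin, by 0.39 ± 0.06 (adjusted p 1.7e-06). MT2A, named after its value was seen, fell by 0.32 ± 0.08 (adjusted p 0.00039), although it rose in A549.

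SOCS3 was the STAT3 list gene with the largest difference in HT29, at 169 CPM in Ptpn2ko IFNg and 22.8 CPM in control IFNg cells (2.89 ± 0.08, edgeR adjusted p 2.1e-36). In that list 9 of 13 rose and 1 fell, and SOCS1 was among those that rose, at 1.02 ± 0.08. Of gp130 ligands and receptors 2 of 6 rose and 1 fell, with a median log2 fold change of 0.09, and of hepatocyte secretory proteins 0 of 2 passed the test. In the interleukin-1 and NF-kB list 9 of 14 rose and 2 fell. RELA, a subunit of NF-kB, averaged 441 CPM in Ptpn2ko and 177 CPM in control cells (1.31 ± 0.05, adjusted p 5.2e-31), and IL1R1 rose by 1.90 ± 0.18. Of C/EBP and liver-enriched factors 2 of 12 rose and 4 fell: CEBPD rose by 1.05 ± 0.07, while HNF4A fell by 1.28 ± 0.14 and ONECUT2 by 1.12 ± 0.10. In coagulation and fibrinolysis 7 of 12 rose and 2 fell, led by PLAT, the tissue plasminogen activator, at 2.33 ± 0.22. PLTP, a relative of LBP that transfers phospholipids, rose by 2.08 ± 0.14 (adjusted p 2.3e-19) while LBP itself was near 0.

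IFNg over vehicle changed 81.8% of the 66 list genes in HT29 controls (37 rose, 17 fell, beside 59.4%) and 92.4% in Ptpn2ko cells (45 rose, 16 fell, beside 67.8%), by the edgeR test. All 5 acute phase proteins tested rose in both genotypes. SERPINA1, for one of them, rose by 1.51 ± 0.06 in Ptpn2ko cells and by 1.18 ± 0.06 in controls, and MT2A by 3.12 ± 0.12 in Ptpn2ko cells and by 3.62 ± 0.12 in controls. The responses differed between the genotypes for 30 list genes, 45.5% beside 19.1% of all genes, larger in Ptpn2ko cells for 17 and smaller for 13. In A375, with labels as given, 36 of 66 list genes rose and 16 fell under IFNg for Ptpn2ko, beside 64.8% of all genes called, and 32 rose and 16 fell for control, beside 66%. In MelJuSo 31 of 54 rose and 10 fell in Ptpn2ko cells, 75.9% beside 54.6% of all genes, and 9 rose and 3 fell in controls, 22.2% beside 11.5%.

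The mouse file was not used to choose the genes, so B16 cells allow tests of the same-named genes and of the mouse Serpina3 family, which expanded by duplication where humans have a single SERPINA3. Of 19 such genes 4 passed the filter, Serpina3f, Serpina3g, Serpina3h and Serpina3i. The paralogs are alike, so reads may be shared among them and their single values are uncertain. The 250 bases before the start of 3 of these genes and of the near-silent Serpina3n are shown because the family differed under IFNg and TNFa, whose pathways use the motifs searched. They are RefSeq sequences on build GRCm38.p6, plus strand, written 5′ to 3′, with motif matches in capitals.
Serpina3f (chr12:104214294-104214543): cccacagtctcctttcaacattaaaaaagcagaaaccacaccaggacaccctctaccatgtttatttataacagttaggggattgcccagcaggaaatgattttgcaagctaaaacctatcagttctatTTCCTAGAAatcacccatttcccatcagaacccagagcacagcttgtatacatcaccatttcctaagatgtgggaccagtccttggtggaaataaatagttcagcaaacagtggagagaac
Serpina3g (chr12:104235897-104236146): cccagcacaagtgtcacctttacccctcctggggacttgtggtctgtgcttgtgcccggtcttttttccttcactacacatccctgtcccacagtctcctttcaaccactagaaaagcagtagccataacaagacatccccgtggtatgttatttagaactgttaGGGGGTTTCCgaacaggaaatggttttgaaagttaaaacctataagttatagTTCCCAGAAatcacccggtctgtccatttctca
Serpina3i (chr12:104262872-104263121): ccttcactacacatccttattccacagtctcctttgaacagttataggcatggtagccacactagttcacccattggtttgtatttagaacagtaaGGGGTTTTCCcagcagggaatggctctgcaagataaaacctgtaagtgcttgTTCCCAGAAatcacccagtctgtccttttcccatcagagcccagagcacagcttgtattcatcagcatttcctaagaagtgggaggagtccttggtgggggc
Serpina3n (chr12:104406458-104406707): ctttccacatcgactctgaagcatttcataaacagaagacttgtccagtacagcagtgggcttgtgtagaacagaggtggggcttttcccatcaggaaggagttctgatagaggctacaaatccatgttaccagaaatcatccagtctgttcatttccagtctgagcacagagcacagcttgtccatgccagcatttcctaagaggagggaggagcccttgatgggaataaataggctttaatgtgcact

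The motifs were searched on both strands, and no matches overlapped. The gamma-activated sequence (GAS, TTCNNNGAA), which STAT dimers bind, was found as TTCCTAGAA at 121 to 113 bases before the Serpina3f start, and as TTCCCAGAA at 33 to 25 bases before that of Serpina3g and at 102 to 94 before that of Serpina3i. The table lists 2 starts for Serpina3f, and the first was used. The NF-kB consensus was found as GGGGGTTTCC at 85 to 76 bases in Serpina3g and as GGGGTTTTCC at 154 to 145 bases in Serpina3i. The interferon-stimulated response element (ISRE, GAAANNGAAA) matched in none of the 4. Serpina3n held no match, and Serpina3h was not in the table. The other near-silent Serpina3 genes were not searched. Whether the matches bear on the levels was not tested. The genes arose by duplication and are alike, so their matches are not separate observations. Of 32851 promoter windows of this length, 7.02% held the GAS letters, 7.25% the NF-kB consensus and 2.98% the ISRE letters.

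In B16 the 4 Serpina3 genes were highest under IFNg with TNFa, and Serpina3f and Serpina3g rose in Ptpn2ko over control cells there (edgeR, adjusted over all 11726 genes tested), where 20.3% of all genes were called higher. Serpina3f had 284, 293 and 291 CPM in Ptpn2ko libraries, against 128, 115 and 120 CPM in control libraries (1.26 ± 0.08 on the log2 scale, adjusted p 3.4e-16). Serpina3g had 72.6, 62.9 and 66.4 CPM in Ptpn2ko libraries, against 30.0, 26.0 and 27.1 CPM in controls (1.28 ± 0.13, adjusted p 6e-11). Neither gene's groups overlapped, and each was higher in 3 of 3 Ptpn2ko libraries than in any control.

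Serpina3h and Serpina3i passed the filter through the Ptpn2ko libraries of this comparison alone, so their difference is given with no test. Serpina3i had 21.9, 21.6 and 21.5 CPM in Ptpn2ko IFNg with TNFa libraries, against 1.88, 2.18 and 3.07 CPM in controls (3.16 ± 0.23 on the log2 scale). Serpina3h had 5.91, 5.41 and 4.42 CPM in Ptpn2ko libraries, against 1.04, 0.91 and 1.08 CPM in controls (2.35 ± 0.37). The groups stood apart for both genes. The Serpina3i difference was 8.95-fold and that of Serpina3f 2.39-fold, and whether they differ from each other was not tested.

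Under IFNg alone Serpina3f had 5.47, 9.72 and 10.5 CPM in Ptpn2ko libraries, against 4.48, 5.34 and 4.12 CPM in controls (0.88 ± 0.22, edgeR adjusted p 0.0012), with 17.7% of all genes called higher. With IFNb and IFNg it had 6.94, 7.22 and 5.74 CPM in Ptpn2ko libraries, against 2.46, 0.903 and 1.17 CPM in controls (2.09 ± 0.31, adjusted p 1.5e-06), with 19.2% called higher. The groups did not overlap in either. Serpina3g had few reads there: 15 in Ptpn2ko against 5 in control libraries under IFNg (1.69 ± 0.69, adjusted p 0.054) and 8 against 6 under IFNb with IFNg (0.21 ± 0.77, adjusted p 0.85). Neither difference passed the threshold.

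In control B16 cells, stimulus over vehicle, Serpina3f was at least 25.5-fold higher under IFNg (edgeR adjusted p 9.9e-11), at least 8.39-fold higher under IFNb with IFNg (adjusted p 7.3e-06) and at least 656-fold higher under IFNg with TNFa (adjusted p 3.1e-30), the vehicle group of 0 reads being set to 3 counts. Of all genes, 20% were called higher under IFNg, 34.3% under IFNb with IFNg and 36% under IFNg with TNFa. Serpina3g was at least 150-fold, Serpina3i at least 13-fold and Serpina3h at least 5.49-fold higher under IFNg with TNFa. In vehicle, under IFNb alone and under TNFa alone all 4 had 0 reads in both genotypes. With IFNb and TNFa they had 0 in controls, and in Ptpn2ko libraries Serpina3f had 1 read and Serpina3g 3 reads. Under IFNg alone Serpina3h and Serpina3i had 0 reads in both genotypes, and under IFNb with IFNg each had 1 read in Ptpn2ko and 0 in control libraries. Serpina3g averaged 0.983 CPM in Ptpn2ko and 0.290 CPM in control libraries under IFNg alone. Of the 4 genes, Serpina3f alone thus averaged over 1 CPM in a group without TNFa.

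**Figure D5:**
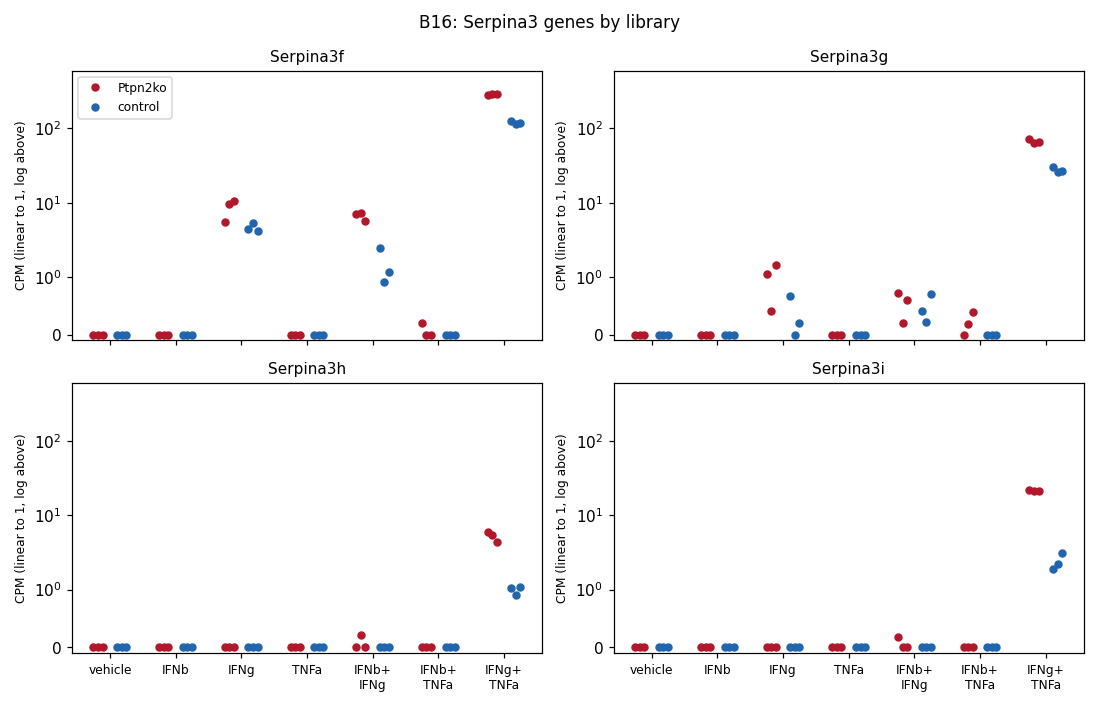
Level in CPM (vertical axis, linear up to 1 and logarithmic above) of the 4 Serpina3 genes in B16 by stimulus, each point 1 library and Ptpn2ko left of control. All 4 lie highest under IFNg with TNFa, where Serpina3f reaches 293 CPM in Ptpn2ko and 128 CPM in control libraries.

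The mouse genes of the same names as the other acute phase genes stayed near 0. Over all 42 B16 libraries Fga had 3 reads, Fgb, Fgg and Saa1 had 0, Saa2 had 1, Lbp 5 and Hp 12. Saa3, a serum amyloid A gene that mouse tissues outside the liver express, had 36 reads with at most 3 in a library. Serpina3n, the member often taken as the mouse counterpart of SERPINA3, had 16 reads with at most 6 in a library, 9 of them in Ptpn2ko and 0 in control libraries under IFNg with TNFa. The other 6 Serpina3 genes had at most 1 read in any library.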

How the data were processed

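RNA was sequenced from 4 human cell lines and mouse B16 cells with a directional, paired-end, poly(A) protocol, per the labels' protocols. The authors deposited raw counts per gene for each line. The submitters' processing notes name HTSeq 0.6.1p1, Bowtie2 2.2.4, DESeq2, Trimmomatic 0.33, the builds hg19 and mm10, and bcl2fastq 2.17.1.14. Annotation and strand setting: not given in the sources used here. If strand was not used, antisense reads would be counted too, and reads of near-identical genes (SAA1 and SAA2, the Serpina3 genes) may be lost or misassigned.

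Each line was fitted on its own with edgeR 4.0.16 (R 4.3.3): genes kept by filterByExpr, TMM scaling, 1 mean per group over all groups, the quasi-likelihood F test, and Benjamini-Hochberg adjustment over all genes tested, at 0.05. CPM used TMM-scaled library sizes. A group with 0 reads of a gene was set to 3 counts in all, and a gene with 1 to 3 counts in a group is given as a ratio with an exact 95% counting interval. Counting intervals and floors cover counting error only. The fit was tested on simulated data. DESeq2 1.42.0, other scaling, no filter, a replicate block, compared groups only and single left-out libraries were the alternatives.

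The members and lists were chosen with earlier results of these data known. The text names the 8 genes, PTPN2, the mouse genes, marker genes, up to 4 called genes per list and contrast with the largest absolute log2 fold change among those whose log2 CPM averaged 1 or more and whose groups did not overlap, and the 2 nearest genes per profile. Some genes that this rule covers are not reported here.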

Additional observations from a re-analysis of the deposited data

Results flagged for a closer look

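The response to IFNg differed between Ptpn2ko and control cells for these genes, as the difference of log2 responses, Ptpn2ko minus control, with its SE and an adjusted p of the edgeR interaction test. All but FGB are list genes, so these p-values are not independent of the choice of the lists. In A549 CP differed by 2.03 ± 0.10 (adjusted p 4.1e-86), LIFR by 1.09 ± 0.14 (adjusted p 9.2e-13) and TNFAIP3 by 1.54 ± 0.26 (adjusted p 2.7e-07), all larger in Ptpn2ko cells. SOCS1 in A549 differed by 2.53 ± 0.73 (adjusted p 0.0085), and the call was lost without control vehicle replicate 1 (adjusted p 0.085) or 2 (adjusted p 0.061). FGB in A549 went in opposite directions, up in both Ptpn2ko IFNg libraries and down in both control IFNg libraries, a difference of 3.62 that was not tested because the gene was chosen with these values known.

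In HT29 RELA differed by 1.28 ± 0.08 (adjusted p 1.8e-20), PROS1 by 1.61 ± 0.18 (adjusted p 2.5e-10), PLTP by 1.99 ± 0.24 (adjusted p 1.2e-09), F3 (tissue factor) by 1.60 ± 0.33 (adjusted p 0.00018) and PLAT by 1.32 ± 0.27 (adjusted p 0.00019), by the same edgeR test and all larger in Ptpn2ko cells. SERPINF2 (alpha-2-antiplasmin) differed by 1.12 ± 0.32 (adjusted p 0.0075), a call that DESeq2 did not make (adjusted p 0.13). SOCS3 differed by 2.0 ± 0.70 (adjusted p 0.034), and the call was lost without control IFNg replicate 2, either control vehicle replicate or Ptpn2ko vehicle replicate 2 (adjusted p 0.055 to 0.17).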

How the results depend on the processing

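For the acute phase genes 145 values were recomputed under another scaling, filter, tool, block or choice of groups. Each moved by less than the SE of the main fit, or changed sign where the main value was below its SE. Such a change of sign was counted as no move, which covers the sign changes of SERPINA3 in A549 given above. With single libraries left out, 29 of 147 moved by more under this rule. FGG for IFNg over vehicle in A549 controls was -0.62 to 0.037, turning sign without control IFNg replicate 2. Of 1019 tests recomputed for single genes under other settings, 23 lost their call. With single libraries left out, 60 of 912 lost it and 2 gained one. DESeq2 called fewer genes than edgeR: in A549 3965 against 6272 (IFNg, controls), 4572 against 7047 (IFNg, Ptpn2ko), 91 against 388 (Ptpn2ko over control, vehicle) and 1437 against 3197 (under IFNg), in HT29 1265 against 2653 (vehicle) and 3241 against 5258 (under IFNg). By DESeq2, IFNg responses differed between genotypes for 13 list genes against 24 in A549 and 19 against 30 in HT29. Of the 8 genes, 2 against 1 were past 2-fold for IFNg in A549 controls under DESeq2 and with no filter, and 0 against 1 in vehicle in A549 and in HT29 when only the compared groups were fitted. B16 gave 2164 against 4504 genes for Ptpn2ko over control under IFNb with IFNg in that fit. Leaving out single libraries gave 134 to 344 genes (A549) and 1626 to 1918 genes (HT29) for Ptpn2ko over control in vehicle, 18 to 24 and 25 to 32 list genes with differing responses, and 0 to 2 (A549 vehicle), 1 to 2 (A549 IFNg, controls) and 1 to 2 (HT29 vehicle) of the 8 genes. Replicate numbers were not taken as pairs in the main fit. Deviations of same-numbered libraries from their group means correlated at -0.03 to 0.06 in human lines and -0.31 to 0.38 in B16. The B16 values furthest from 0 were between Ptpn2ko and control. They were 0.33 and 0.38 (replicates 2 and 3) under IFNb with IFNg, and -0.31 and -0.19 (replicates 1 and 3) under IFNg with TNFa. What these B16 libraries share was not tested. The replicate block gave 448 against 388 genes for A549 vehicle and changed no count by over 1.5 times. The cause of these changes was not tested. Counts mostly under 10 limit SERPINA3, SAA and LBP in A549.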
